A study of Rattus norvegicus with 38 samples.

Results

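Airway surfaces are defended in part by oxidants that the tissue makes itself, and 8 genes of that system were examined here in the lungs of rats exposed to cigarette smoke. The genes are Lpo (lactoperoxidase), Slc26a4 (pendrin), Noxo1 (NADPH oxidase organizer 1), Duox1 and Duox2 (dual oxidases), and Cybb, Cyba and Ncf1 of the phagocyte NADPH oxidase. They were taken as the probe sets annotated with that 1 gene symbol, and where a gene had several, the probe set with the highest mean over all arrays stood for it. By this rule 7 of the 8 genes were measured, by 10 probe sets, among 14217 genes on the array. Duox1 was not analysed here.

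The animals were N:NIH female rats, 34 weeks old, of lines bred for a high (HCR, high capacity runner) or low (LCR, low capacity runner) intrinsic exercise capacity. Exposure to cigarette smoke, or to room air as the sham, ran 5 days a week, and the lungs were collected at 12 weeks. RNA from about 25 mg of lung was hybridised to Affymetrix Rat Genome 230 2.0 arrays, 1 per animal, and each line gave 7 sham and 12 smoke rats. Line and exposure are the only labelled differences, so the comparisons are smoke against sham within a line, LCR against HCR within an exposure, and the size of the smoke change in LCR against that in HCR.

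Lactoperoxidase is a secreted peroxidase of airway glands, milk and saliva that uses hydrogen peroxide to turn thiocyanate into hypothiocyanite, an oxidant that harms microbes. Thiocyanate and iodide reach the airway surface through anion exchangers and channels, pendrin and CFTR among them, and the dual oxidases of the apical membrane release the hydrogen peroxide. The phagocyte oxidase is a separate source: its membrane core is made of the products of Cybb (gp91phox) and Cyba (p22phox), and Ncf1 (p47phox), Ncf4 and Rac2 assemble onto it when the cell is activated. NOXO1 is the homologue of p47phox that organises NOX1, which also needs p22phox.

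The window of 250 bases before each annotated start was read from RefSeq promoter sequences (build GRCr8), which held all 8 genes. Lpo, Slc26a4 and Cybb are shown because the first 2 changed most and Cybb encodes the catalytic core of the phagocyte oxidase. Sequences run 5′ to 3′ on the gene's own strand, and capitals mark motif matches. The Lpo window lies at chr10:73123457-73123706 and the Slc26a4 window at chr6:53873217-53873466, both on the minus strand and both wholly inside the span that RefSeq gives the gene. The Cybb window lies at chrX:16065066-16065315 on the minus strand, outside the annotated gene.
Lpo: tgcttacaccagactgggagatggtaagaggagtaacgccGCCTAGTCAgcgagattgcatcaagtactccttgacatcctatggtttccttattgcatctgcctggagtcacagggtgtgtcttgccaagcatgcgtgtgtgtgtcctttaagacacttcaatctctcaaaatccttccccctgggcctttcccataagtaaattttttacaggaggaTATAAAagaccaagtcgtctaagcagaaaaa
Slc26a4: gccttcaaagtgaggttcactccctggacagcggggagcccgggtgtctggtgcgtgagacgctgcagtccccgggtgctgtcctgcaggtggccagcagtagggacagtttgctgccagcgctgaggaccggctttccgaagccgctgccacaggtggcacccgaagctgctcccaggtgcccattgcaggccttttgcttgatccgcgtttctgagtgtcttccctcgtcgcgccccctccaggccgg
Cybb: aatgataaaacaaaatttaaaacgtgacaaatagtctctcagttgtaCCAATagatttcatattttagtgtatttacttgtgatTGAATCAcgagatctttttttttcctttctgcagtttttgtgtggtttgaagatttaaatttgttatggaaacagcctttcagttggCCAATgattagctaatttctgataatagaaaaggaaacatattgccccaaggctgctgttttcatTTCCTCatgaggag

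Motifs were searched as letters on both strands, and a match is a description of the letters only. In the Lpo window the NRF2-type motif TGACNNNGC matched as GCCTAGTCA on the opposite strand, from base -210 to base -202 counted from the start, and TATAAA matched from -31 to -26. Over all 33469 RefSeq windows of that length, 10.1% held TGACNNNGC and 12.9% held TATAAA. The Cybb window held the AP-1 motif TGANTCA as TGAATCA from -166 to -160, the PU.1-type motif GAGGAA as TTCCTC on the opposite strand from -14 to -9, and CCAAT from -203 and from -79. TGANTCA was in 6.34% of all windows, GAGGAA in 23.3% and CCAAT in 34.0%. TGACNNNGC also matched in the Ncf1 window, as GCTCTGTCA from -159 to -151. The Duox2 window held TGANTCA as TGATTCA from -26 to -20 and TATAAA as TTTATA from -163 to -158. In the Duox1 window GAGGAA matched as TTCCTC from -230 to -225. The windows of Slc26a4, Noxo1 and Cyba held none of the motifs searched. These also included the aryl hydrocarbon receptor motif TNGCGTG (4.09% of all windows), the STAT6 motif (6.25%), TTGCNNAA for C/EBP (9.22%) and NF-kB (6.33%). GC content was 65.6% in the Slc26a4 window, 45.6% in the Lpo window and 32.0% in the Cybb window.

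Some arrays stood apart, and results that rest on them are given with and without them. On HCR sham 0432 the 3′ Actb control exceeded the 5′ one by 2.06 (log2), a gap that was 0.63 to 0.83 for the rest of that group. HCR smoke 0419 lay within or just above the HCR sham range for Lpo, Slc26a4, Noxo1 and Cyba, while its Cyp1a1 intensity of 3965, a gene induced through the aryl hydrocarbon receptor, was within the range of the remaining HCR smoke rats (2803 to 4881) and far above the 6.20 to 16.4 of HCR sham. Heart muscle, skeletal muscle or fat genes were high on 6 arrays, which 1 alternative left out. That alternative kept 0432 and 0419, whose heart muscle means were also raised. Set against the mean of all arrays they were 1.29 on 0432 (HCR sham median -0.73) and 0.81 on 0419 (HCR smoke median -0.62). The interquartile range of the log2 values was lower in HCR smoke (2.74 to 2.94) than in HCR sham (2.94 to 3.03), and overlapped between LCR smoke (2.78 to 3.002) and LCR sham (2.96 to 3.04). In HCR the interquartile range separates smoke from sham, so as a covariate it can take up the smoke change itself. A HCR call lost with that covariate does not tell scaling and smoke apart. The numbering of the arrays follows the groups, and order and group cannot be told apart. Lung markers were present: the summed intensity of 8 alveolar type 2 genes, the surfactant-making cells, was 33449 to 44525 over the 38 arrays.

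Smoke raised 6 of the 7 measured genes in both lines, and Duox2 passed in HCR alone, a call that several alternatives ended. The genes were chosen with earlier results of these data known, so their counts beside the shares of all genes are a description. Of the 7 genes, 7 rose in HCR and 6 in LCR at a limma adjusted p under 0.05, where 17.7% and 22.7% of all genes tested rose, 30.4% and 27.9% fell, and 48% and 50.6% moved in either direction. The median change of the 7 was 0.78 on the log2 scale in HCR and 1.14 in LCR, against -0.03 and -0.005 for all genes. The range within the set was wide, from 4.10 for Lpo in LCR to 0.07 for Duox2 in LCR. Changes are differences of log2(intensity + 16), a scale that understates the change of dim genes. In whole lung a change in the number of cells that express a gene and a change in the RNA per cell cannot be told apart.

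**Figure D1:**
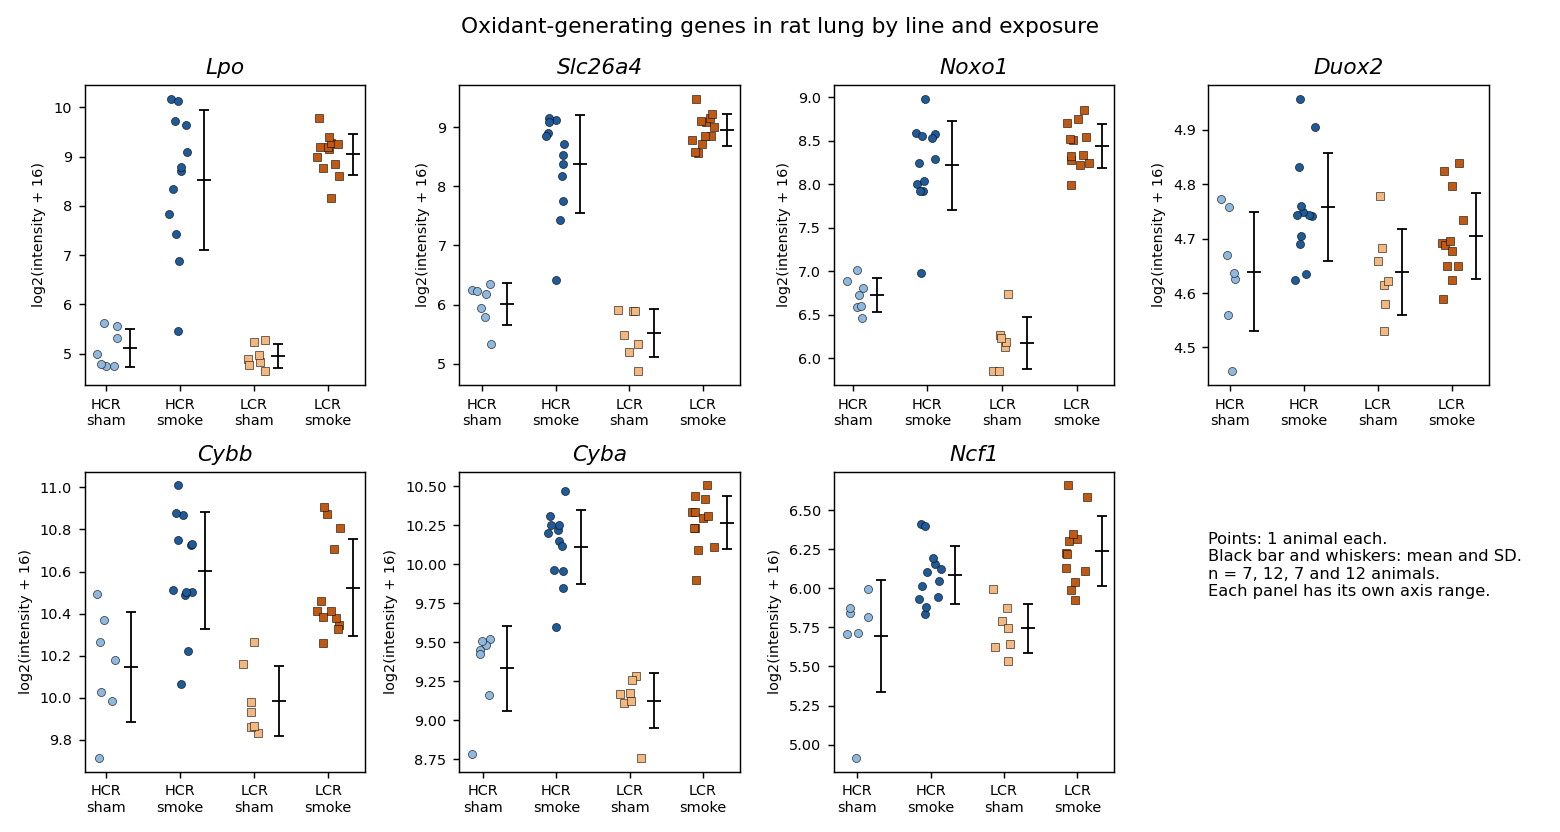
Level of the 7 measured genes as log2(intensity + 16), 1 point per animal, for 7 sham and 12 smoke rats of each line, with mean and SD as black bars; each panel has its own axis range. Lpo, Slc26a4, Noxo1 and Cyba of LCR smoke lie wholly above LCR sham, 1 HCR smoke animal lies near the sham animals, and the Duox2 axis spans only a small range near the floor of the scale.

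Lpo was the member that smoke changed most. In HCR sham its intensity was 10.7 at the lowest, 16.01 at the median and 33.4 at the highest, and in HCR smoke 28.1, 415 and 1142. In LCR sham the values were 8.91, 13.7 and 22.7, and in LCR smoke 270, 562 and 861. All 12 LCR smoke rats lay above all LCR sham rats, and 11 of 12 HCR smoke rats lay above all HCR sham rats, the exception being 0419 at 28.1. The rise was 3.41 ± 0.40 (SE) in HCR (limma adjusted p = 3.53e-08) and 4.10 ± 0.40 in LCR (adjusted p = 3.21e-10). Counted from the largest rise, it ranked 3 of 14217 genes in HCR and 2 in LCR. Without 0419 the HCR rise was 3.69.

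The smoke-exposed HCR rats differed widely among themselves in Lpo, as the map of single animals shows. The SD of the log2 level was 1.42 in HCR smoke and 0.42 in LCR smoke, and it was 0.39 and 0.24 in the sham groups of HCR and LCR. Against the mean of their line's sham rats, the HCR smoke animals rose by 0.36 to 5.07 and the LCR smoke animals by 3.21 to 4.83. Whether the spread itself differed between the lines was not tested. In order of mean log2 level LCR sham came first, then HCR sham, then HCR smoke and last LCR smoke. The difference between the lines passed neither under sham (limma adjusted p = 0.903) nor under smoke (0.340).

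**Figure D2:**
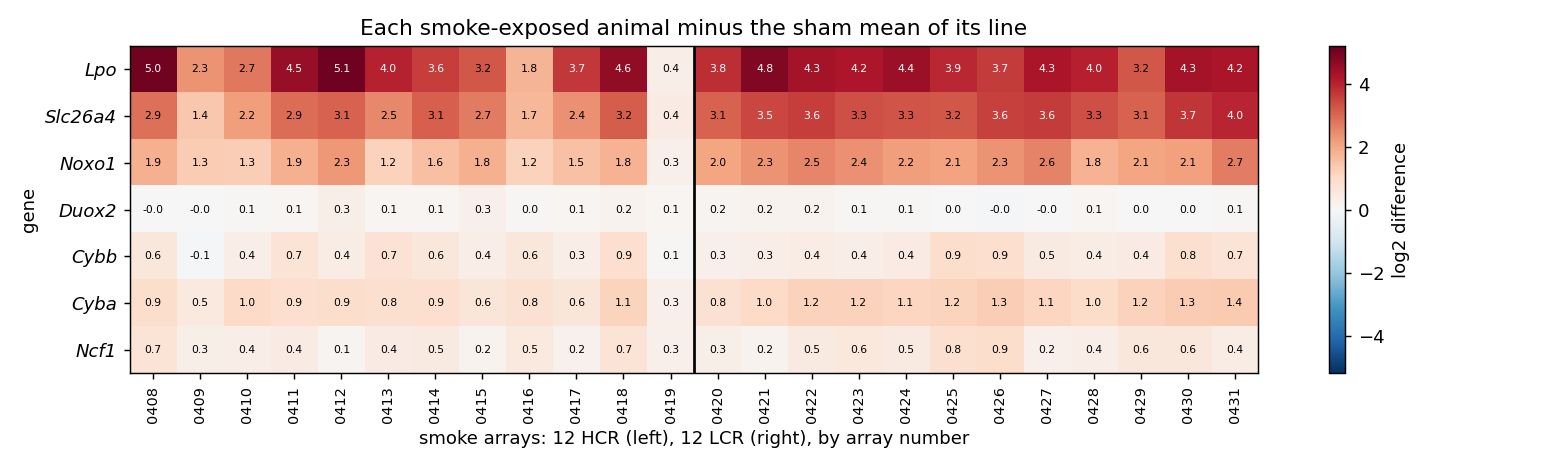
Change of each smoke-exposed animal from the sham mean of its own line, as a log2 difference, for 7 genes (rows) and 24 arrays (columns, 12 HCR to the left of the line and 12 LCR to the right); red is higher and blue lower than sham. The Lpo row runs from 0.36 to 5.07 in HCR and from 3.21 to 4.83 in LCR, and array 0419 is pale in every row.

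Slc26a4 encodes pendrin, an exchanger of chloride for bicarbonate, iodide and thiocyanate. In HCR sham its lowest, median and highest intensities were 24.4, 56.8 and 64.9, and in HCR smoke 69.5, 378 and 556. In LCR sham they were 13.2, 28.8 and 44.2, and in LCR smoke 363, 472 and 701. Every smoke array lay above every sham array in both lines. Groups did not overlap in this direction for 1.58% of all genes in HCR and 5.9% in LCR, and in the lower direction for 4.28% and 8.55%. The rise was 2.37 ± 0.25 in HCR (limma adjusted p = 6.92e-09, rank 9 of 14217) and 3.44 ± 0.25 in LCR (adjusted p = 6.84e-13, rank 5). The lowest HCR smoke value again came from 0419, next above it being 156, and without it the HCR rise was 2.55.

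Noxo1, the organiser of NOX1, followed. Its intensities in HCR sham were 72.1, 90.1 and 113 (lowest, median, highest), and in HCR smoke 110, 293 and 491. In LCR sham they were 41.7, 57.2 and 91.0, and in LCR smoke 239, 328 and 448. The LCR groups did not overlap, and in HCR only 0419, at 110, fell within the sham range. Noxo1 rose by 1.49 ± 0.16 in HCR (limma adjusted p = 1.44e-08) and by 2.26 ± 0.16 in LCR (adjusted p = 6.84e-13). A second Noxo1 probe set was near the floor, with intensities of 3.52 to 6.07 over all arrays, and its changes were 0.02 in HCR and 0.06 in LCR. Averaging both probe sets gave 0.75 and 1.16, and both passed.

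The catalytic subunit that NOXO1 organises is NOX1. Nox1 had mean intensities between 10.2 and 11.46 in the 4 groups, and its changes of 0.07 ± 0.05 in HCR (limma adjusted p = 0.241) and 0.02 ± 0.05 in LCR (adjusted p = 0.691) missed the threshold, the former passing with median-centred arrays at 0.14 (adjusted p = 0.0338). Duox2, the dual oxidase that was measured, was also dim: its intensities spanned 5.95 to 11.3 in HCR sham, 8.66 to 15.1 in HCR smoke, 7.10 to 11.4 in LCR sham and 8.07 to 12.6 in LCR smoke. All 4 ranges overlapped. The change was 0.12 ± 0.04 in HCR (adjusted p = 0.0260) and 0.07 ± 0.04 in LCR (adjusted p = 0.201). The HCR call was lost under quantile normalization (adjusted p = 0.147) and without HCR sham 0434 (0.103) or 0439 (0.0611), and the value fell to 0.003 with the interquartile range as a covariate (0.981). Duoxa1, a maturation factor of the dual oxidases that neighbours them in RefSeq, changed by -0.07 in HCR (adjusted p = 0.690) and 0.29 in LCR (adjusted p = 0.0882), which passed with median-centred arrays (0.34, adjusted p = 0.0418).

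The phagocyte oxidase genes rose less than Lpo, Slc26a4 and Noxo1, Cyba and Cybb from a higher level of signal. Ncf1 was dimmer than Noxo1 under sham. Cyba intensities were 424, 682 and 719 in HCR sham (lowest, median, highest) and 757, 1138 and 1403 in HCR smoke. In LCR sham they were 416, 559 and 606, and in LCR smoke 939, 1244 and 1437. Neither line's groups overlapped. Cyba rose by 0.78 ± 0.10 in HCR (limma adjusted p = 1.56e-07) and by 1.14 ± 0.10 in LCR (adjusted p = 3.66e-11). A second, dim Cyba probe set, with intensities of 6.91 to 13.0, rose by 0.08 (adjusted p over all probe sets 0.0321) and 0.12 (0.00217), and the mean of both gave 0.43 and 0.63.

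Cybb, which encodes the electron-carrying core of that enzyme, ranged over 823, 1144 and 1423 in HCR sham and 1054, 1561 and 2047 in HCR smoke. In LCR sham it ranged over 894, 960 and 1214, and in LCR smoke over 1211, 1348 and 1905. The LCR groups overlapped by a single smoke array, since 11 of 12 lay above every sham array, and in HCR 9 of 12 did. The rise was 0.46 ± 0.11 in HCR (limma adjusted p = 0.00114) and 0.54 ± 0.11 in LCR (adjusted p = 0.000154). The second Cybb probe set gave larger rises, 0.87 ± 0.21 and 0.996 ± 0.21.

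Ncf1, the organiser subunit, had intensities of 14.1, 40.3 and 47.7 in HCR sham and 41.2, 51.5 and 69.1 in HCR smoke. They were 30.4, 37.8 and 47.8 in LCR sham and 44.8, 58.7 and 85.0 in LCR smoke. Ranges overlapped in both lines, with 8 of 12 HCR and 10 of 12 LCR smoke arrays above every sham array. Ncf1 rose by 0.39 ± 0.11 in HCR (limma adjusted p = 0.00311) and by 0.49 ± 0.11 in LCR (adjusted p = 0.000276). The lowest HCR sham value came from array 0432, and without it the HCR rise was 0.26 (adjusted p = 0.0176).

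Ncf4, Rac2 and Cybc1, which serve the phagocyte oxidase, rose in both lines. With them, of 8 partner subunits of NADPH oxidases measured, 6 rose and 0 fell in each line. The other 3 were Cyba, Ncf1 and the NOX1 organiser Noxo1 described above. Of all genes 17.7% rose in HCR and 22.7% in LCR. Rac2, the GTPase of blood cells that switches the enzyme on, rose by 0.63 ± 0.08 in HCR (limma adjusted p = 6.48e-08) and 0.48 ± 0.08 in LCR (adjusted p = 2.66e-06), with no overlap in either line. Ncf4 (p40phox) rose by 0.30 and 0.55, and Cybc1, a chaperone of the membrane core, by 0.14 and 0.18, of which the HCR call was lost with the interquartile range covariate (adjusted p = 0.0750). The widely expressed Rac1 changed by -0.05 (adjusted p = 0.147) and 0.02 (0.597). Of 4 catalytic subunits, Cybb and Duox2 passed in HCR and Cybb in LCR, while Nox4, an oxidase of vessel and connective tissue cells, changed by -0.21 (adjusted p = 0.277) and -0.20 (0.285). The medians over the partner subunits were 0.35 and 0.49, and over the catalytic subunits 0.09 and 0.05. Noxa1, Duoxa2 and Nox3 were not analysed here.

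**Figure D3:**
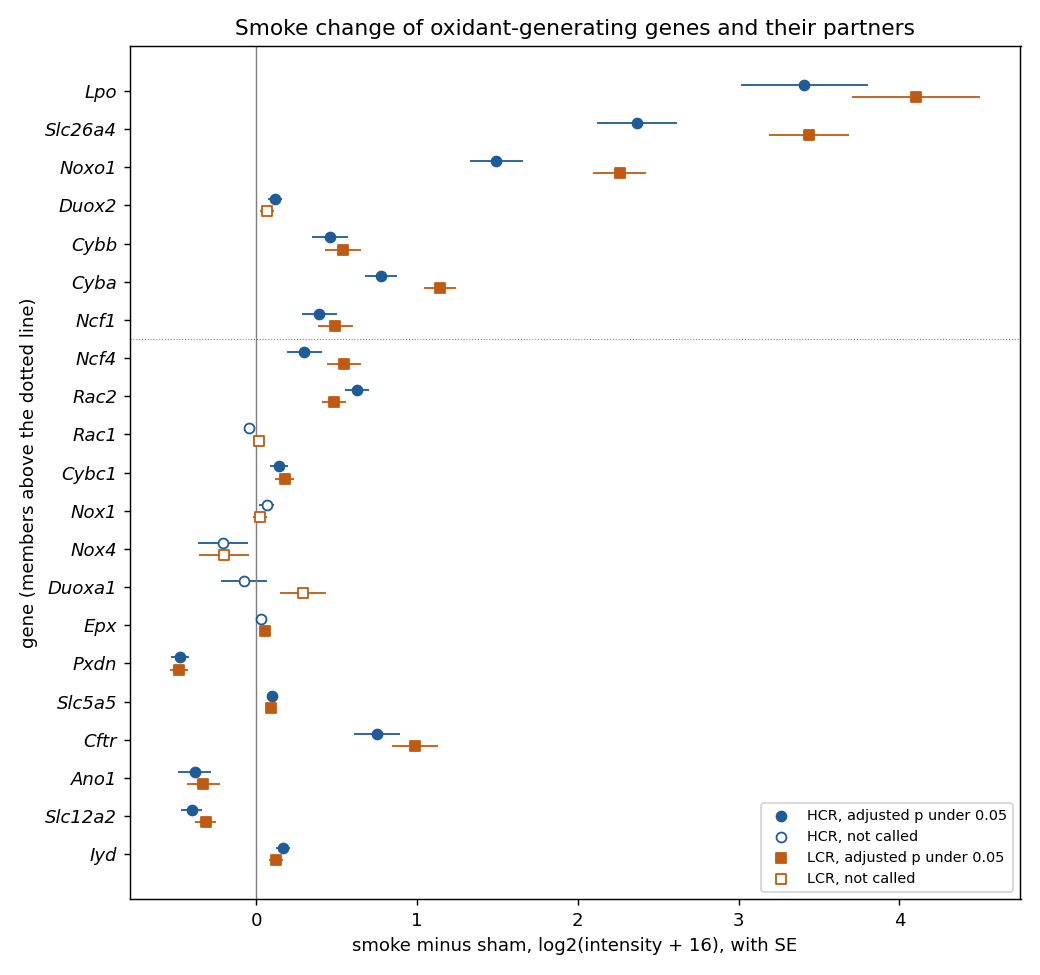
Smoke minus sham difference of log2(intensity + 16) for the 7 genes (above the dotted line) and for further oxidase subunits, peroxidases and anion transport genes (below it), with SE, in HCR (blue circles) and LCR (orange squares); filled symbols have a limma adjusted p under 0.05. Lpo, Slc26a4 and Noxo1 lie to the right of the other genes, and Pxdn, Ano1 and Slc12a2 lie below 0 in both lines.

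Macrophage markers moved in both directions beside the phagocyte oxidase, and part of the neutrophil markers rose. Of 12 macrophage markers 7 rose and 3 fell in HCR, and 9 rose and 2 fell in LCR, against the all-gene shares of 17.7% and 22.7% that rose and 30.4% and 27.9% that fell. The median change over the 12 was 0.74 in HCR and 1.18 in LCR. Those that fell were Cd163, by 0.77 and 0.50, Adgre1, by 0.37 and 0.45, and Csf1r, by 0.33 in HCR. With the interquartile range covariate the HCR count was 6 that rose and 1 that fell, with the falls of Adgre1 and Csf1r lost. The LCR count was 9 and 1, with the fall of Cd163 lost. Without the 6 arrays with muscle or fat RNA, 7 rose and 2 fell in HCR and 9 rose and 3 fell in LCR. The summed intensity of the 12 macrophage markers was 14106 to 16393 in HCR sham and 16284 to 23153 in HCR smoke. It was 13160 to 15558 in LCR sham and 18967 to 23896 in LCR smoke. Of 10 neutrophil markers 4 rose in HCR and 5 in LCR, and none fell in either line. The neutrophil sum was 712 to 4351 in HCR sham, 2330 to 9533 in HCR smoke, 927 to 1663 in LCR sham and 5191 to 8528 in LCR smoke. S100a8 and S100a9 rose, by 1.81 and 2.29 in HCR and 2.40 and 2.84 in LCR, while the neutrophil receptor gene Csf3r changed by 0.04 (limma adjusted p = 0.866) and -0.02 (0.933). No marker of either list was at 0. The part of these cells in the rises of Cybb, Cyba and Ncf1 was not tested.

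The rise of Lpo stood beside a fall of another peroxidase gene. Of 3 measured peroxidases, Lpo rose in both lines and Pxdn, the peroxidase that crosslinks collagen IV in basement membrane, fell by 0.47 in HCR (limma adjusted p = 4.58e-08) and by 0.48 in LCR (adjusted p = 1.26e-08), with no overlap with sham in either line. The eosinophil peroxidase gene Epx had mean intensities of 4.41 to 5.17, and it changed by 0.03 (adjusted p = 0.230) and 0.05 (0.0404), a LCR call that quantile normalization ended (0.192), while median-centred arrays gave a HCR call (0.11, adjusted p = 0.00960). The medians over the 3 genes were 0.03 and 0.05. Mpo was not analysed here. Of 8 airway gland serous cell markers, Lpo included, 4 rose and 1 fell in HCR and 4 rose in LCR. This list shares Lyz2 with the macrophage list, and Lyz2 rose in LCR and is part of both sums. For this and the next lists the shares of all genes were 17.7% and 22.7% that rose and 30.4% and 27.9% that fell. Without Lpo their summed intensity was 14130 to 15858 in HCR sham, 15337 to 20044 in HCR smoke, 13123 to 14696 in LCR sham and 15443 to 16907 in LCR smoke. With the interquartile range covariate 3 rose and 0 fell in each line. Bpifb1, a secreted airway protein, rose by 2.37 and 1.501, the LCR call being lost with that covariate (1.23, adjusted p = 0.0528), while its relative Bpifa1 changed by 0.97 (adjusted p = 0.374) and -0.77 (0.474). Of 11 mucous cell markers 5 rose and 1 fell in HCR and 2 rose in LCR, the HCR counts becoming 0 and 0 with the covariate. Their summed intensity was 437 to 893 in HCR sham, 470 to 5587 in HCR smoke, 596 to 2705 in LCR sham and 653 to 2214 in LCR smoke. Of 4 club cell markers 1 rose in HCR and 3 fell in LCR, and of 5 ciliated cell markers 1 fell in HCR and 3 in LCR. Without the 6 arrays with muscle or fat RNA, 0 club cell markers rose in HCR and 1 fell in LCR. The ciliated cell falls were then 1 and 2. With the covariate the club cell counts were 0 and 3 and the ciliated cell falls 1 and 1. With median-centred arrays 2 club cell markers rose in HCR and 2 fell in LCR. The club cell sum was 10435 to 15010 in HCR sham, 10403 to 16833 in HCR smoke, 11312 to 18512 in LCR sham and 9782 to 12517 in LCR smoke. The ciliated cell sum was 3225 to 4335, 2309 to 4367, 3516 to 4689 and 2131 to 3605 in the same order. Alveolar type 1 markers fell, 6 of 6 in HCR and 5 of 6 in LCR, with sums of 19425 to 22906, 14951 to 19794, 18595 to 21956 and 16440 to 19839. The part of these cells in the rises of Lpo, Slc26a4 and Noxo1 was not tested.

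Anion transport genes split in direction. Of 6 measured, 4 rose and 2 fell in each line, with medians of 0.13 and 0.11. Of all genes 17.7% and 22.7% rose and 30.4% and 27.9% fell in HCR and LCR. Cftr, the chloride channel that also passes thiocyanate, rose by 0.75 ± 0.14 in HCR (limma adjusted p = 6.05e-05) and 0.99 ± 0.14 in LCR (adjusted p = 6.19e-07). Its mean intensity went from 57.5 to 108 and from 53.6 to 125. Ano1, a calcium-activated chloride channel, fell by 0.38 and 0.33, and Slc12a2, the basolateral chloride importer, fell by 0.40 and 0.31. The iodide importer Slc5a5 and the iodotyrosine deiodinase Iyd passed with rises of 0.10 and 0.17 in HCR and 0.09 and 0.12 in LCR, at mean intensities of 5.13 to 15.3. With the interquartile range covariate neither passed, and Iyd in LCR was also lost under quantile normalization (adjusted p = 0.108). Of 5 measured ionocyte markers, a rare CFTR-rich cell, 4 rose in HCR and 2 in LCR, and under quantile normalization, as with the interquartile range covariate, 2 and 1. Ascl3 rose by 0.31 and 0.21, but with that covariate it did not pass in either line (adjusted p = 0.152 and 0.196). Cftr is itself among the 5 and among those that rose in each line, so this list repeats its rise. The summed ionocyte intensity, Cftr included, was 81.9 to 124 in HCR sham and 129 to 219 in HCR smoke. It was 81.0 to 115 in LCR sham and 132 to 259 in LCR smoke. Its part in the rise of Slc26a4 was not tested.

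Interferon gamma and the interleukins IL-4 and IL-13 are known inducers of dual oxidases and pendrin in airway cells, and their genes were near the floor. Il4, with mean intensities of 6.71 to 8.59, rose by 0.09 in LCR (limma adjusted p = 0.00496), a call lost with the interquartile range covariate (0.173). In HCR it changed by 0.06 (adjusted p = 0.0565) and passed with median-centred arrays (0.00458) or without 0419 (0.0429). Ifng had mean intensities of 3.36 to 3.61 and Il13 of 5.83 to 6.93, and neither passed in a line, though both passed in HCR with median-centred arrays (0.10, adjusted p = 0.00319, and 0.14, 0.00768). Of 13 cytokine and receptor genes measured, 4 rose and 2 fell in HCR and 5 rose and 2 fell in LCR. The medians were 0.02 and 0.04, and 6 and 7 genes were called, a share near the 48% and 50.6% of all genes. Tnf rose by 1.23 ± 0.15 in HCR (limma adjusted p = 5.92e-08) and 1.58 ± 0.15 in LCR (adjusted p = 1.57e-10). Il1b rose by 0.83 and 0.66, and Ifngr2, a chain of the interferon gamma receptor, rose by 0.35 and 0.51 with no overlap in either line. The falls of Il4r, by 0.22 and 0.19, did not pass under quantile normalization (adjusted p = 0.160 and 0.0852) or with median-centred arrays (0.140 and 0.115). Il17a and Il13ra1 were not analysed here.

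None of the 7 genes passed between the lines under either exposure by limma at an adjusted p under 0.05, where 3.73% of all genes differed under sham and 6.32% under smoke. Under sham 1 member had an unadjusted p under 0.05, Noxo1, which was lower in LCR by 0.55 ± 0.19 (adjusted p = 0.0911, 95% interval of the difference -0.92 to -0.17). Noxo1 passed without LCR sham 0444 (adjusted p = 0.0442) or HCR smoke 0419 (0.0278), and with only the sham groups in the fit (0.0447). Slc26a4 was lower in LCR sham by 0.50 ± 0.28 (adjusted p = 0.370), and all 7 LCR sham rats lay below the HCR sham mean.

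Under smoke both genes had their higher mean in LCR, again without passing. Slc26a4 was higher in LCR smoke by 0.57 ± 0.22 (limma adjusted p = 0.0983, interval 0.14 to 1.01), with 12 of 12 LCR smoke rats above the HCR smoke mean. Noxo1 was higher by 0.22 (adjusted p = 0.341, interval -0.07 to 0.51) and Lpo by 0.53 (adjusted p = 0.340, interval -0.16 to 1.22). Much of these differences came from 1 array: without HCR smoke 0419 the values were 0.39 for Slc26a4 (adjusted p = 0.173), 0.11 for Noxo1 and 0.26 for Lpo. Cyba differed by 0.16 (interval -0.02 to 0.33), Cybb by -0.08 (-0.28 to 0.11) and Ncf1 by 0.15 (-0.04 to 0.34).

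The smoke changes of 6 of the 7 genes were larger in LCR than in HCR, but no member passed the test of that difference, the interaction, in which 1.87% of all genes passed. Slc26a4 changed by 1.07 ± 0.36 more in LCR (limma adjusted p = 0.0939, interval 0.35 to 1.79) and Noxo1 by 0.77 ± 0.23 more (adjusted p = 0.0674, interval 0.30 to 1.24). Cyba changed by 0.36 ± 0.14 more (adjusted p = 0.145) and Lpo by 0.69 ± 0.56 more (adjusted p = 0.532, interval -0.44 to 1.83). Unadjusted, 3 members had a p under 0.05. Noxo1 passed without HCR sham 0439 (adjusted p = 0.0493), LCR sham 0444 (0.0398) or HCR smoke 0412 (0.0325), and Cyba passed without HCR sham 0432 (0.0320). Without HCR smoke 0419 the differences were 0.89 for Slc26a4, 0.65 for Noxo1 and 0.42 for Lpo, and none of the 3 passed.

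Within the smoke groups some members' levels were correlated from rat to rat. More pairs passed in HCR than in LCR, and all but 1 of the HCR calls were lost without array 0419. Pearson correlations of log2 levels were computed for 21 pairs of genes in each smoke group, 42 in all, over 12 rats each, with permutation p-values adjusted over the 42. In HCR smoke Lpo and Slc26a4 had r = 0.92 (permutation adjusted p = 0.00357) and Spearman rho = 0.80 (permutation adjusted p = 0.0630). Lpo and Noxo1 had r = 0.89 and Slc26a4 and Noxo1 r = 0.89. In LCR smoke these pairs had r = 0.47, 0.38 and 0.73, of which the last passed (permutation adjusted p = 0.0352, rho = 0.75). Some LCR smoke pairs ran in opposite directions: Duox2 with Cybb (r = -0.64), with Ncf1 (-0.62) and with Cyba (-0.58), and Lpo with Ncf1 (-0.51). None of these passed. The share of other gene pairs that would pass was not computed.

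In all 9 of the 42 pairs passed, 7 in HCR smoke and 2 in LCR smoke, and no rho passed. Without HCR smoke 0419, 1 pair passed, Lpo with Slc26a4 in HCR smoke at r = 0.84 (permutation adjusted p = 0.0349), while Lpo with Noxo1 had r = 0.77 (0.0705) and Slc26a4 with Noxo1 0.74 (0.0751). The LCR smoke correlations do not use that array, and their adjusted p-values changed only because the adjustment is over all 42 pairs. Leaving out the 2 rats farthest from the median of the first gene gave r = 0.79 for Lpo with Slc26a4 and 0.73 for Lpo with Noxo1 in HCR smoke. For Slc26a4 with Cyba it took r from 0.81 to 0.40 and for Slc26a4 with Cybb from 0.71 to 0.31. Their rho over all rats was 0.68 and 0.73. Leaving out a gene's most extreme rats narrows its range, which can itself lower r. That step therefore cannot settle whether those relations rest on those rats. Among the phagocyte oxidase genes, Cybb and Ncf1 had r = 0.65 in HCR smoke (permutation adjusted p = 0.0742) and 0.74 in LCR smoke (0.0352). The latter was 0.38 without the 2 farthest rats, with a rho of 0.66 over all rats.

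**Figure D4:**
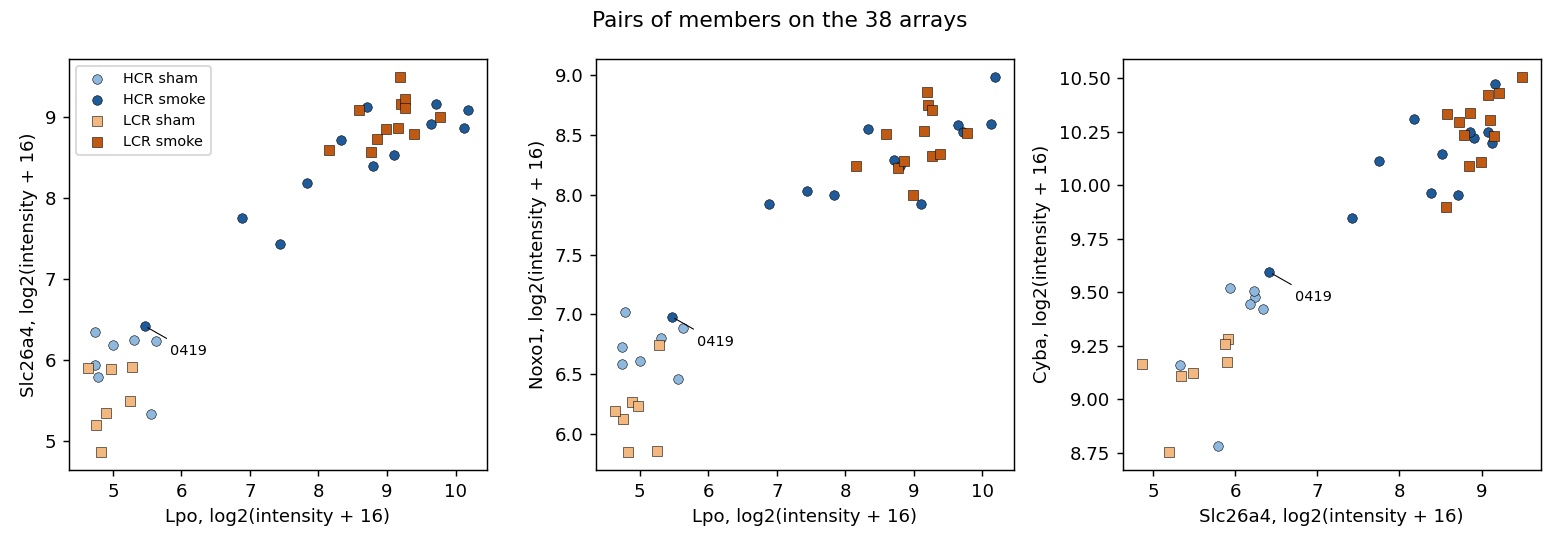
Level of 1 gene against another as log2(intensity + 16) on 38 arrays, for Lpo with Slc26a4, Lpo with Noxo1 and Slc26a4 with Cyba; circles are HCR, squares LCR, pale symbols sham and dark symbols smoke. Smoke and sham arrays form separate clusters, except that the HCR smoke array 0419 lies beside the sham arrays.

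Array 0419 was low in Lpo, Slc26a4 and Noxo1 but not in every gene that smoke raised. Besides Cyp1a1, its Aldh3a1 intensity of 880 and Nqo1 intensity of 3269, both detoxifying enzymes, lay within the range of the remaining HCR smoke rats (322 to 1861 and 2384 to 4865) and above HCR sham (34.9 to 54.2 and 542 to 938). Its mean over the macrophage markers, set against the mean of all arrays, was -0.17, with the remaining HCR smoke rats at -0.04 to 0.54 and HCR sham at -0.53 to -0.19. For the NADPH oxidase partner subunits that are not members its mean was -0.19, against -0.13 to 0.25 and -0.29 to -0.08. Its ionocyte mean was 0.16, against -0.04 to 0.31 and -0.25 to -0.10. Its B cell mean was 0.83, against -0.64 to 0.36 and -0.15 to 0.78. The part of these cells in its low Lpo, Slc26a4 and Noxo1 was not tested.

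The genes whose levels ran most like Lpo within both smoke groups, by the mean of the 2 Pearson correlations over 12 rats each among 9597 genes, were Orm1 (r = 0.95 in HCR and 0.83 in LCR), Lcn2 (0.97 and 0.64), Ralgapa1 (0.81 and 0.67), Sting1 (0.94 and 0.52) and Dzip1l (0.65 and 0.81). Orm1 encodes the acute phase protein orosomucoid and Lcn2 the siderophore-binding lipocalin 2. For Slc26a4 they were the chemokine genes Ccl7 (0.87 and 0.94), Ccl2 (0.91 and 0.89) and Ccl4 (0.90 and 0.84), with Mreg (0.92 and 0.82) and Gpnmb (0.86 and 0.85), the last one of the macrophage markers above. The correlations share the arrays, 0419 among them, and carry no test. With smoke, Orm1 rose by 2.59 and 3.47, Lcn2 by 2.09 and 3.17, Ccl7 by 1.56 and 1.91 and Ccl2 by 2.52 and 2.66 in HCR and LCR. Mreg rose by 1.13 and 1.84, Ccl4 by 1.15 and 0.90, Sting1 by 0.90 and 1.12, and Ralgapa1 by 0.31 and 0.34. Dzip1l did not pass in either line (0.08, limma adjusted p = 0.499, and 0.01, 0.906). The 5 genes nearest to Lpo and the 5 nearest to Slc26a4 had none in common.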

How the data were processed

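The authors deposited 1 linear intensity per probe set and array (31099 probe sets, 38 arrays, range 2.09 to 11558). Their summarising and normalizing steps are not given in the sources used here. Of the probe sets, 57 were controls, 20826 had 1 symbol, 436 several and 9780 none in the platform annotation. Values were analysed as log2(intensity + 16) without further normalization, with 1 probe set for each of 14217 genes. Array pairs correlated at 0.962 to 0.997, and at most 0.0611% of values were identical.

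The 4 group means were fitted with limma 3.58.1 (lmFit, eBayes, two-sided) in R 4.3.3, on 34 residual degrees of freedom, 36.22 after adding the prior. Benjamini-Hochberg adjustment ran over all 14217 genes at a threshold of 0.05, and gene-wise adjusted p-values are limma's from here unless said otherwise. Pair correlations used two-sided permutation tests with 100000 resamples in SciPy 1.17.1. Both were tested on simulated data. Groups came from the labels, which describe separate rats.

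The members and lists were chosen with earlier results of these data known. Named were all members, list genes by role where they passed in a comparison, and the 5 genes most like Lpo and like Slc26a4. Genes named with a value although they did not pass (Nox1, Nox4, Rac1, Duoxa1, Ifng, Il13, Csf3r, Bpifa1), the comparison genes of array 0419 (Cyp1a1, Aldh3a1, Nqo1), the markers S100a8, S100a9, Cd163, Adgre1, Csf1r, Bpifb1 and Ascl3, and the TATAAA and CCAAT motifs were chosen after the data were seen. The alternatives tried changed the scaling (quantile, median-centred), the pseudocount (1), the filter (mean log2 of at least 6), the probe sets used (averaged, or all), the variance model (trend and robust, array weights, only the groups compared), covariates (3′ to 5′ difference of Gapdh or Actb, interquartile range) and the arrays (without 6 that held muscle or fat RNA, and without each in turn).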

Additional observations from a re-analysis of the deposited data

Results flagged for a closer look

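Among the 14 sets of 7 sham values of a member, 2 held an array far from the others by Dixon's criterion for 7 values, and chance gives about 1 in 20. Ncf1 on HCR sham 0432 had an intensity of 14.1, against 36.3 to 47.7 on the other 6 HCR sham arrays, a gap of 0.736 of the whole range where 0.568 is the critical value. That array also had the highest Actb and Gapdh 3′ minus 5′ differences of its group, 2.06 and 1.20, against 0.63 to 0.83 and 0.03 to 0.30 on the others. The part of RNA quality in its Ncf1 value was not tested. Cyba on LCR sham 0441 had an intensity of 416, where the next lowest was 537 and the highest 606, a gap of 0.676 of the range.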

How the results depend on the processing

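For the members, 35 results (7 genes in 5 comparisons) were compared with alternatives 1768 times. Direction of a called value and side of the threshold were kept 1754 times, a call was lost 6 times and gained 8 times, and no called value changed sign. The 6 losses were all Duox2 in HCR: quantile normalization (adjusted p = 0.147), only the groups compared (0.0575), the interquartile range covariate (0.981), without the 6 arrays with muscle or fat RNA (0.0741), and without HCR sham 0439 or 0434. The gains were Noxo1 between sham groups (3) and in the interaction (3), named above, and Cyba in the interaction, 0.40 with array weights (0.0347) and 0.45 without HCR sham 0432 (0.0320). Ncf1 in HCR was 0.22 with the Gapdh covariate (0.0497) and 0.21 with the Actb covariate (0.0461).

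Counts of called genes moved by over 1.5 times as follows. Smoke in HCR called 6830 genes, and 3023 with the interquartile range covariate, which in HCR separates smoke from sham. The line difference under sham called 531 genes, 233 with only the groups compared, 946 with array weights, 827 with the interquartile range covariate and 314 to 830 with 1 array left out. The line difference under smoke called 898, 2860 with array weights, 365 with the interquartile range covariate and 487 without the 6 arrays. The interaction called 266, 1537 with array weights, 562 and 629 with the Gapdh and Actb covariates, 58 without the 6 arrays and 81 to 768 with 1 array left out. Members called went from 0 to 1 between sham groups with only the groups compared, from 0 to 1 in the interaction with array weights, and lay between 0 and 1 with 1 array left out in both. Median-centred arrays moved the share of called genes that were higher from 36.8% to 64.2% (HCR smoke), 44.8% to 61.1% (LCR smoke) and 73.1% to 40.1% (line under smoke, 52.6% with quantile normalization), and in the interaction it was 81.2%, 71.8% median-centred and 67.0% with quantile normalization. Pairs called went from 9 to 1 without HCR smoke 0419, an alternative chosen after seeing the data, and to 7 with quantile normalization or without 4 HCR smoke arrays with heart muscle RNA.

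The number of arrays limits the precision. The filter on dim genes left out Duox2 and Ncf1, so they have no value there. The fit of only the groups compared was not run for the interaction, which needs all 4. No paired analysis was possible because no array number is shared between groups. Scanner background and detection calls were not used here, so a dim value is stated as an intensity only.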

Other observations

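Other enzymes that form oxidants moved in both directions. Of 8 measured, 2 rose and 4 fell in each line, where 17.7% and 22.7% of all genes rose and 30.4% and 27.9% fell, with medians of -0.14 in HCR and -0.19 in LCR. The monoamine oxidases of the mitochondrial outer membrane, which form hydrogen peroxide as they degrade amines, fell in both lines: Maoa by 0.41 ± 0.07 (limma adjusted p = 2.06e-05) and 0.66 ± 0.07 (2.44e-09), and Maob by 0.51 and 0.38. The aldehyde oxidase gene Aox1 fell by 0.41 and 0.31, and Aoc3, an amine oxidase of vessel walls, fell by 0.25 and 0.33. These 8 calls were the same under quantile normalization, median-centred arrays and the interquartile range covariate. Endothelial markers fell as well, 5 of 6 in HCR and 6 of 6 in LCR. Their summed intensity was 11790 to 14193 in HCR sham, 9068 to 11525 in HCR smoke, 11244 to 14135 in LCR sham and 8737 to 10771 in LCR smoke, and the part of that in the fall of Aoc3 was not tested.

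Inducible nitric oxide synthase, Nos2, rose by 0.30 ± 0.08 in HCR (limma adjusted p = 0.00207) and 0.35 ± 0.08 in LCR (adjusted p = 0.000395), from mean intensities of 58.0 and 51.1 to 74.97 and 69.9. With the interquartile range as a covariate, which in HCR separates smoke from sham, its HCR change was -0.04 (adjusted p = 0.611). The neuronal synthase gene Nos1 rose by 0.10 in HCR (adjusted p = 0.0245), a call lost under quantile normalization (0.222) and with that covariate (0.741). Xdh, which forms xanthine oxidase, rose by 0.28 in LCR (adjusted p = 0.00562) and changed by -0.03 in HCR (adjusted p = 0.821), and the difference between these changes did not pass (interaction adjusted p = 0.147). Under sham Xdh was lower in LCR than in HCR by 0.41 ± 0.09 (adjusted p = 0.00744), with mean intensities of 1688 and 2267, and under smoke the means were 2051 and 2216 (adjusted p = 0.342).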
